A study of Mus musculus with 24 samples.

Results

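The let-7 microRNA genes of the mouse were examined for their DNA copy number in transgenic adrenal glands and neuroblastoma tumors. The set holds the 10 autosomal let-7 genes, chosen by name and by their position on GRCm39 and not by any measured value, out of 72958 annotated genes and 2054 annotated miRNA genes on the 19 autosomes. Shallow whole genome sequencing (sWGS) of 24 mouse samples asked which chromosomal changes arise in these tissues. Segment values were analysed for 21 samples, namely 5 adrenal glands with a MYCN transgene (AGM, genotype MYCN fl/wt, CRE +), 8 tumors with an IGF2BP1 transgene (TI, CRE +, of which 7 are labelled IGF2BP1 +/+ and TI 1 is labelled IGF2BP1 +/-) and 8 tumors with both transgenes (TIM, labelled IMP1/MYCN, CRE +, where IMP1 is another name of IGF2BP1). The other 3 samples are CRE - adrenal glands, which were the authors' wild-type reference and were not measured against themselves.

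The transgenes sit at the Rosa26 locus behind a stop cassette that a Cre recombinase removes, and this Cre is driven by Dbh, a gene of sympatho-adrenal cells. All 3 groups therefore carry the Cre. By the paper, the IGF2BP1 transgene and the MYCN transgene both lack their own 3' untranslated region (3'UTR). The labels place TI 6, TIM 1 and TIM 5 in the adrenal gland and give no site for the other 13 tumors. They give no age per sample. By the paper, mice with both transgenes had a shorter median survival than mice homozygous for the IGF2BP1 transgene. The paper's MYCN mice were culled at a later age than these homozygous mice. Age may therefore differ between AGM, TI and TIM along with genotype, and an effect of age was not tested. A tumor sample can hold normal cells next to tumor cells, so a shallow log2 ratio cannot tell a loss in part of the cells from a loss in all tumor cells of an impure sample. DNA segments do not show expression, so the labelled tissues could not be checked against marker genes here.

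MicroRNAs of the let-7 family are short RNAs that bind matching sites in the 3'UTR of mRNAs and lower their stability and translation. The family is induced when cells differentiate, its targets include oncofetal and growth genes such as the Lin28, Igf2bp and Hmga genes, and the RNA-binding protein LIN28 blocks its maturation. In neuroblastoma let-7 is known as a restraint on MYCN, and RNA-binding proteins of the IGF2BP family are known to shield mRNAs from it.

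The 10 genes give 8 different mature RNAs, which are shown because all members share the seed that pairs with targets. Mature sequences are credited to the RefSeq table of GRCm38.p6, 5' to 3', with the seed (bases 2 to 8) in capitals.
let-7a-5p: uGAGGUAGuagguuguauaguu
let-7b-5p: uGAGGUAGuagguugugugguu
let-7c-5p: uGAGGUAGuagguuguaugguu
let-7d-5p: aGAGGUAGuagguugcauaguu
let-7e-5p: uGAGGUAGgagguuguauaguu
let-7f-5p: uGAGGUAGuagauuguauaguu
let-7g-5p: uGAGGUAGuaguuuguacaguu
let-7i-5p: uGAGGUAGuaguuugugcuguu

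All 8 mature RNAs held 1 and the same seed. Counted from the 5' end, let-7c differed from let-7a by A19G, let-7e by U9G and let-7f by G12A. The RNAs let-7b (A17G and A19G), let-7d (U1A and U16C) and let-7g (G12U and U18C) differed from it at 2 positions each, and let-7i at 4 positions (G12U, A17G, U18C and A19U). The mature let-7a is made from 2 genes on different chromosomes, Mirlet7a-1 and Mirlet7a-2, and let-7c from Mirlet7c-1 and Mirlet7c-2. The table listed the 5p RNA of let-7a under Mirlet7a-1 only, and the hairpin of Mirlet7a-2 held the same 22 bases. The RefSeq hairpins of all 10 genes equalled the GRCm39 sequence at the positions used here.

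The hairpins of both let-7a genes and of let-7g are shown because they let both genes of mature let-7a be compared and because the let-7 genes of Chr 9, Mirlet7a-2 and Mirlet7g, were reduced most often in the tumors described below. The mature RNA is in capitals.
Mirlet7a-1: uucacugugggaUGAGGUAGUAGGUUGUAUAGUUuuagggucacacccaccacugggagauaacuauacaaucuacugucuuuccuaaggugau
Mirlet7a-2: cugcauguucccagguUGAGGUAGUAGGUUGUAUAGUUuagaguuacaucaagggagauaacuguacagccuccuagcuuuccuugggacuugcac
Mirlet7g: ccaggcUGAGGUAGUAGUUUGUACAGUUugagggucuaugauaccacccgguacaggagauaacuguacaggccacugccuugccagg

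The members lie at 7 loci on 6 chromosomes (GENCODE M39, GRCm39). Mirlet7d (chr13:48689488-48689590), Mirlet7f-1 (chr13:48691305-48691393) and Mirlet7a-1 (chr13:48691655-48691748) form a cluster of 2261 bp on the minus strand within the lncRNA gene 6720427I07Rik, where they fall in an exon or an intron depending on the transcript. Mirlet7a-2 (chr9:41448012-41448107, plus strand) lies in introns of the lncRNA gene Mir100hg, and Mirlet7g (chr9:106056039-106056126, plus strand) lies 64.6 Mb further along Chr 9 in introns of the protein-coding gene Wdr82. Mirlet7c-2 (chr15:85590804-85590898) and Mirlet7b (chr15:85591520-85591604) form a cluster of 801 bp on the plus strand of the lncRNA gene Lncppara, in an exon of 17 of its 20 transcripts that span them. Mirlet7c-1 (chr16:77396545-77396638, plus strand) lies in introns of the lncRNA gene Mir99ahg. Mirlet7e (chr17:18050614-18050706, plus strand) lies in introns of the protein-coding gene Spaca6. Mirlet7i (chr10:122821545-122821629, minus strand) lies in an exon of the lncRNA gene Gm63655 and in an intron of the pseudogene D630033A02Rik. Members of a cluster had the same segment and value in every sample, so the 10 genes are not independent and give at most 7 separate measurements per sample.

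The measurement was the median log2 ratio of the deposited segment that holds the gene, relative to the wild-type adrenal glands. A loss was a log2 ratio of -0.4 or lower and a gain one of 0.3 or higher, and values between -0.4 and -0.1 or between 0.1 and 0.3 were taken as partial losses and partial gains. A value of 0 corresponds to 2 copies per gene, given as 2 × 2 to the power of the log2 ratio. In AGM the members measured between 0.0052 and 0.0162 over all 35 locus and sample combinations. This narrow range comes from segments of 15.5 Mb or longer. It does not give the precision of shorter segments in the tumors, of which the shortest with a member spanned 5.5 Mb. The depth of the libraries was not analysed here.

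No let-7 gene reached the threshold for a loss in any of the 21 samples. The lowest value of all was -0.344, at Mirlet7c-1 in TI 3, which equals 1.58 copies. By comparison, 10% of all autosomal genes reached -0.4 in at least 1 TI tumor. Losses or partial losses, which at the members were partial losses throughout, were found in 12 of 80 gene and tumor combinations in TI (15%, against 7.46% for losses or partial losses over all autosomal genes), in 2 of 80 in TIM (2.5%, against 0.605%) and in 0 of 50 in AGM. Counted by locus, these were 11 of 56 combinations in TI and 1 of 56 in TIM. They fell in 4 of 8 TI tumors (TI 1, TI 3, TI 4 and TI 7) and in 1 of 8 TIM tumors (TIM 4). Gains or partial gains were found in 6 of 80 combinations in TI (7.5%, against 16.7% over all autosomal genes) and in 0 of 80 in TIM (against 4.86%). In the plot of log2 ratios by locus, the TI tumors spread in both directions while AGM and nearly all TIM values stay close to 0.

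**Figure D1:**
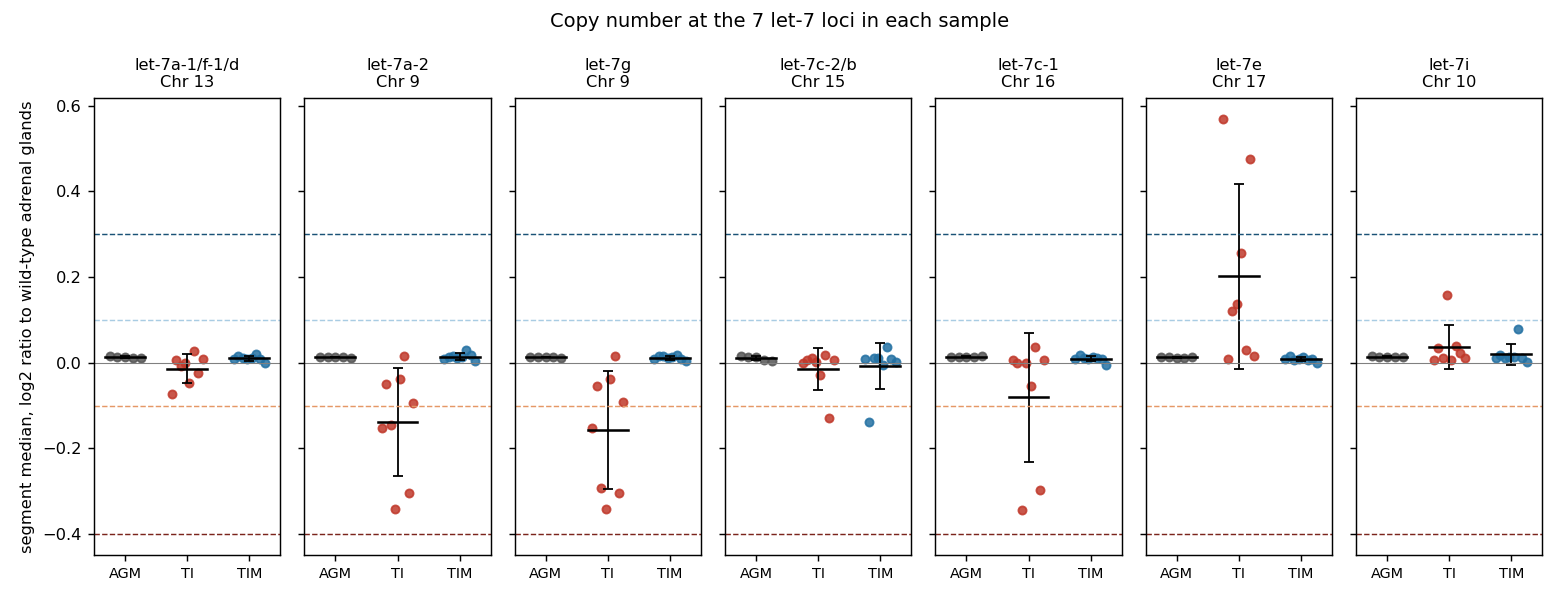
Median log2 ratio of the segment at each of the 7 let-7 loci (vertical axis, relative to wild-type adrenal glands) in 5 AGM, 8 TI and 8 TIM samples (points), with the mean (horizontal line) and SD (error bar) of each group. Dashed lines mark -0.4, -0.1, 0.1 and 0.3. The lowest point is -0.344 at let-7c-1 and the highest is 0.570 at let-7e, both in TI.

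The let-7 genes of Chr 9 were reduced most often. At Mirlet7g, the TI tumors measured -0.152 (TI 1), -0.0538 (TI 2), -0.294 (TI 3), -0.341 (TI 4), -0.0378 (TI 5), 0.0149 (TI 6), -0.305 (TI 7) and -0.0921 (TI 8). Thus 7 of 8 TI tumors lay below every TIM tumor and every AGM gland, 4 of them as partial losses (50%, 95% Clopper-Pearson interval 15.7 to 84.3%), and TI 6 was the exception. In TIM, Mirlet7g measured 0.00850 (TIM 1), 0.0147 (TIM 4), 0.0166 (TIM 5), 0.0103 (TIM 7), 0.0132 (TIM 8), 0.0189 (TIM 9), 0.00942 (TIM 11) and 0.00305 (TIM 12). In AGM it measured 0.0132, 0.0129, 0.0139, 0.0129 and 0.0123. The TIM tumors lay around the AGM glands, with 4 below and 3 above their range.

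Mirlet7a-2 followed the same pattern with a shallower value in TI 3. It measured -0.152, -0.0486, -0.145, -0.341, -0.0378, 0.0149, -0.305 and -0.0948 in TI 1 to TI 8. In TIM the lowest value was 0.00492, the median 0.0133 and the highest 0.0298, and the AGM glands lay between 0.0123 and 0.0139. In copies, the pair of Chr 9 genes together held 3.62 ± 0.321 (SD, n = 8) in TI, 4.04 ± 0.0168 (SD, n = 8) in TIM and 4.04 ± 0.00166 (SD, n = 5) in AGM. The lowest tumor, TI 4, held 3.16 of 4 copies.

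The reduction of Chr 9 was broad. In TI 1, TI 4, TI 5 and TI 7 both genes lay in 1 segment of 119 to 121 Mb, which covered 95.5 to 97.6% of the chromosome. In TI 2, TI 3 and TI 8, Chr 9 was cut into several segments and the genes lay in different ones. In TI 3, Mirlet7a-2 lay in a segment of 10.7 Mb at -0.145, which was shallower than its neighbors at -0.381 and -0.262, and Mirlet7g lay in a segment of 28.8 Mb at -0.294 next to one at -0.454. In TI 8, the segments with the genes measured -0.0948 and -0.0921, while the stretch between them reached -0.211 and the proximal stretch -0.308. In both tumors the members thus sat in segments shallower than those next to them. The segments at -0.1 or lower that held a let-7 gene spanned 10.7 to 121 Mb and 435 to 3963 genes, so no let-7 gene was reduced in a segment of its own.

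**Figure D2:**
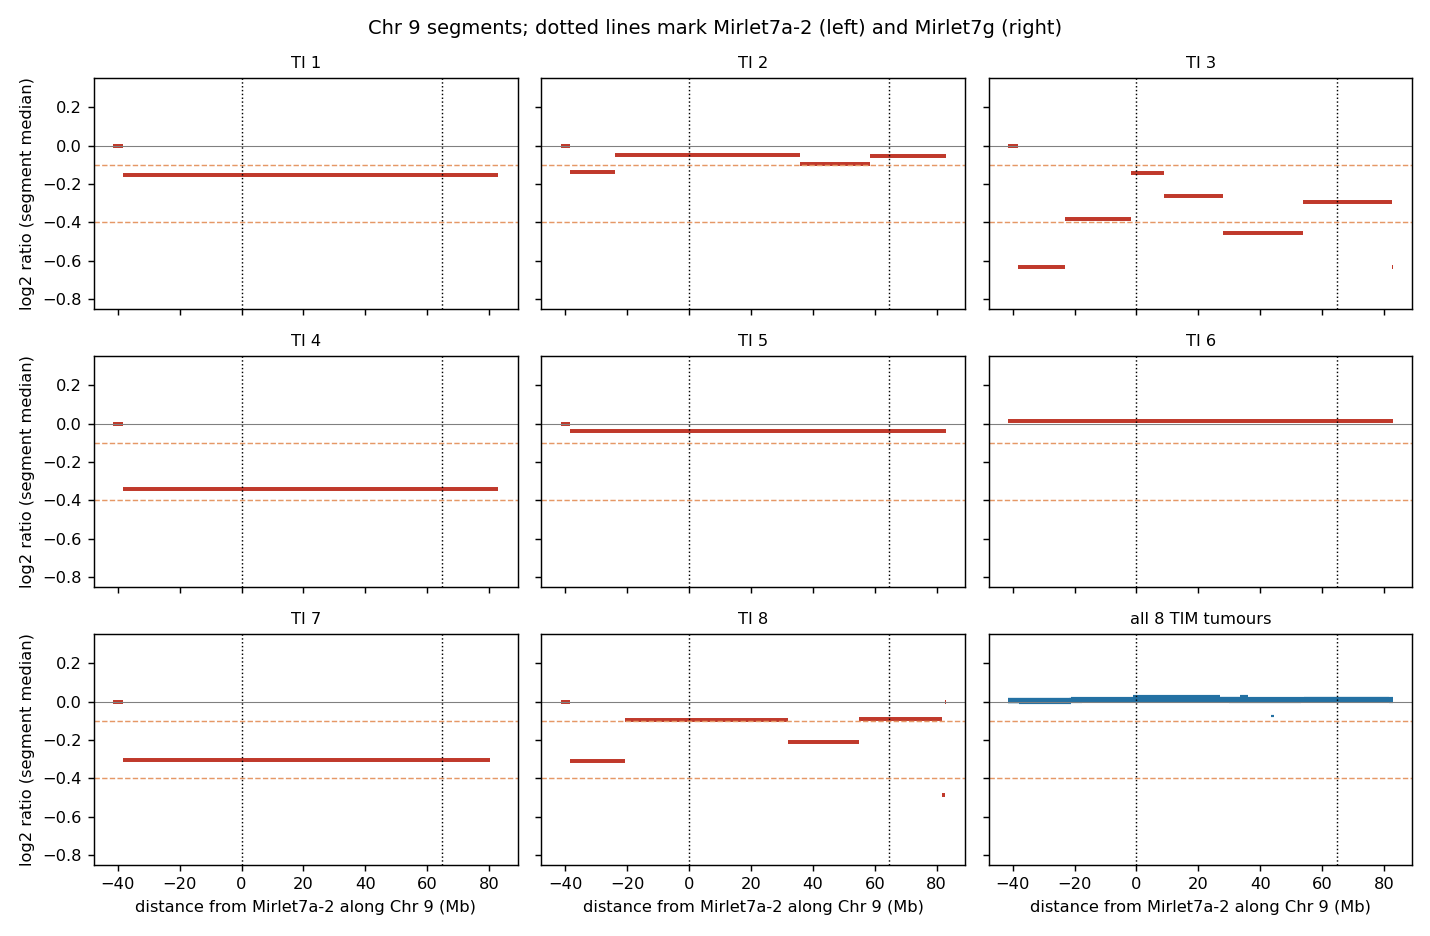
Median log2 ratio of each Chr 9 segment (vertical axis) against the distance from Mirlet7a-2 in Mb (horizontal axis) for the 8 TI tumors and for the 8 TIM tumors drawn together. Dotted lines mark Mirlet7a-2 and Mirlet7g, and dashed lines mark -0.1 and -0.4. One long segment at -0.341 holds both genes in TI 4, while TI 3 shows several steps with Mirlet7a-2 at -0.145 and Mirlet7g at -0.294.

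Between the tumor groups, 3 of the 10 members differed. By rank sums and an exact permutation test (two-sided), with Benjamini-Hochberg adjustment over all 72958 genes, TI was lower than TIM at Mirlet7a-2 (median difference of the log2 ratio -0.13, adjusted p = 0.0257) and at Mirlet7g (-0.13, adjusted p = 0.0316). In the same exact test TI was higher at Mirlet7e (0.12, adjusted p = 0.0257). Over all autosomal genes the test called 11.1% lower and 10.3% higher in TI, so 2 lower and 1 higher of 10 members was not far from the background. On Chr 9, 3952 of 3964 genes (99.7%) were called lower in TI, as were both let-7 genes there. The calls at the 3 members were lost when TI 3, TI 5 or TI 7 was left out (adjusted p from 0.0502 to 0.0632), where the share of all genes called fell to 0.628% lower and 5.12% higher, and the call at Mirlet7g was also lost without TI 1, TI 4 or TIM 5 (adjusted p 0.0625, 0.0582 and 0.0586). With only the tumors not labelled as adrenal, the call at Mirlet7e was lost (exact permutation test, adjusted p = 0.0622).

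A second limit concerns the title series. Sample titles start with SH or AGH, without an explanation in the labels. All AGM glands and all TIM tumors carry AGH, and 7 of 8 TI tumors and the wild-type reference glands carry SH, so that series and genotype cannot be told apart for TI. Within AGH only TI 8 could be compared, with no test. It measured -0.0948 and -0.0921 at the Chr 9 genes, below all 13 other AGH samples there, and 0.0147 at Mirlet7e, within their range.

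Counted as tumors with a loss or partial loss, 4 of 8 TI tumors against 0 of 8 TIM tumors at Mirlet7a-2 and Mirlet7g gave p = 0.0769 in a two-sided Fisher's exact test and an adjusted p of 1. No autosomal gene passed this test after adjustment (0%), and 1070 of 72958 genes had an unadjusted p under 0.05. Of all autosomal genes, 5.61% had a loss or partial loss in at least 4 TI tumors, and 3963 of the 4092 genes concerned lie on Chr 9.

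At Mirlet7c-1 on Chr 16, a partial loss was found in TI 3 (-0.344) and TI 7 (-0.297). The other TI tumors measured 0.00664 (TI 1), 0 (TI 2), 0 (TI 4), -0.0539 (TI 5), 0.0378 (TI 6) and 0.00552 (TI 8). The TIM tumors lay between -0.00436 and 0.0180 and the AGM glands between 0.0136 and 0.0162. The difference between TI and TIM did not pass the exact permutation test (adjusted p = 0.101). The segment held 1115 genes in TI 3 and 1589 in TI 7.

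The Chr 15 cluster of Mirlet7c-2 and Mirlet7b had 1 partial loss in each tumor group. TI 7 measured -0.130 in a segment of 100.1 Mb, and TIM 4 measured -0.137 in a segment of 19.8 Mb. The other TI tumors lay between -0.0275 and 0.0193, the other TIM tumors between -0.00511 and 0.0367 and the AGM glands between 0.00519 and 0.0149. TIM 4 was the only TIM tumor with a let-7 gene at -0.1 or lower, and 3.04% of all autosomal genes had a loss or partial loss in at least 1 TIM tumor. The difference between TI and TIM did not pass the threshold at this cluster (exact permutation test, adjusted p = 0.641).

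The Chr 13 cluster of Mirlet7a-1, Mirlet7f-1 and Mirlet7d had no partial loss by the segment median. In TI it measured -0.0734 (TI 1), 0.00635 (TI 2), -0.00780 (TI 3), 0.00051 (TI 4), -0.0463 (TI 5), 0.0278 (TI 6), -0.0233 (TI 7) and 0.00833 (TI 8). Of these 8 values, 7 lay below the AGM range of 0.0117 to 0.0158, by less than 0.1. In TIM the lowest value was 0, the median 0.00990 and the highest 0.0196. The adjusted p of TI against TIM was 0.101 in the exact permutation test. By the segment mean, the other summary value in the deposited table, 4 of 8 TI tumors were at -0.1 or lower at this cluster, with -0.25 (TI 1), -0.114 (TI 3), -0.226 (TI 5) and -0.172 (TI 7). Of the 2 genes of mature let-7a, Mirlet7a-1 was thus at -0.1 or lower in 0 of 8 TI tumors by the median and in 4 by the mean, and Mirlet7a-2 in 4 by the median and in 7 by the mean.

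Mirlet7e on Chr 17 moved in the other direction. In TI it measured 0.570 (TI 1), 0.00880 (TI 2), 0.12 (TI 3), 0.136 (TI 4), 0.256 (TI 5), 0.0298 (TI 6), 0.476 (TI 7) and 0.0147 (TI 8). This makes 2 gains, with 2.97 copies in TI 1 and 2.78 in TI 7, and 3 partial gains. The TIM tumors lay between 2.5e-05 and 0.0161 and the AGM glands between 0.0112 and 0.0144. Gains in at least 2 TI tumors were found at 19.4% of all autosomal genes. The gained segments spanned 20.8 Mb in TI 1 and 92.2 Mb in TI 7. TI 1, TI 3, TI 4 and TI 7, the 4 tumors with partial losses on Chr 9, all had a gain or partial gain of Mirlet7e, as had TI 5.

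Mirlet7i on Chr 10 stayed near 0 in most samples. TI 4 measured 0.159, a partial gain in a segment of 21.6 Mb, and the other TI tumors lay between 0.00689 and 0.0381. Among TIM tumors TIM 9 was highest at 0.0796 and the other 7 lay between 0.00080 and 0.0174. The groups overlapped (exact permutation test, adjusted p = 0.841).

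Against the adrenal glands, no member passed the adjusted threshold. In TI against AGM, Mirlet7a-2, Mirlet7g, Mirlet7c-1, Mirlet7e and the Chr 13 cluster all had an adjusted p of 0.0617 in the exact permutation test (unadjusted p between 0.0272 and 0.0295), with 7 of 8 tumors on one side of all 5 glands. An unadjusted p under 0.05 was found at 50.2% of all genes in this comparison. The size of these differences was unequal, with median differences of -0.14 at Mirlet7g, 0.12 at Mirlet7e and -0.016 at Mirlet7a-1, and the rank test takes no account of size. Over all genes 12.4% were called lower and 7.14% higher in TI than in AGM. TI 6 was the tumor on the other side at all of these loci except Mirlet7e, where it was TI 2, and without TI 6 the test called 6 members lower (Mirlet7a-1, Mirlet7f-1, Mirlet7d, Mirlet7a-2, Mirlet7g and Mirlet7c-1, exact permutation test, adjusted p = 0.00725). Without TI 6 the share of all genes called lower rose as well, from 12.4% to 32.8%, and 7.19% were called higher. Without TI 2 the exact permutation test called Mirlet7e higher (adjusted p = 0.0110), with 12.4% of all genes called lower and 11.5% higher. In TIM against AGM the exact permutation test called 0 of 10 members and 0% of all genes in either direction, with adjusted p between 0.383 and 0.902 and unadjusted p between 0.0932 and 0.833 at the members, while 9.68% of all genes had an unadjusted p under 0.05.

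The copy numbers of the 10 genes were summed for each sample, where 20 copies correspond to an unchanged genome. The AGM glands held 20.20, 20.19, 20.18, 20.16 and 20.16 copies. The TI tumors held 20.28 (TI 1), 19.96 (TI 2), 19.20 (TI 3), 19.59 (TI 4), 19.96 (TI 5), 20.36 (TI 6), 19.24 (TI 7) and 19.84 (TI 8). The TIM tumors held 20.12 (TIM 1), 19.81 (TIM 4), 20.16 (TIM 5), 20.14 (TIM 7), 20.13 (TIM 8), 20.39 (TIM 9), 20.14 (TIM 11) and 20.01 (TIM 12). The medians were 19.90 in TI, 20.13 in TIM and 20.18 in AGM, and the groups overlapped. The lowest sum, in TI 3, was 0.801 copies below 20. In both tumor groups 6 of 8 tumors lay below all 5 AGM glands, whereas 2 TI tumors and 1 TIM tumor lay above them. The AGM range was narrow and lay above 20, so this count includes small differences, such as 20.14 in TIM 7 and TIM 11. By the deposited copy number, all AGM glands held 20 copies. The TI tumors then held 19.2 to 20.3 (median 19.8) and the TIM tumors 19.6 to 20.3 (median 20).

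Gains of Mirlet7e offset part of the losses in the sum. TI 1 reached 20.28 copies although its Chr 9 members were at -0.152 and its Chr 13 members at -0.0734, and Mirlet7e added 0.969 copies there. Without Mirlet7e the 9 remaining genes held 17.48 ± 0.577 copies (SD, n = 8) in TI, 18.10 ± 0.163 in TIM (SD, n = 8) and 18.16 ± 0.0183 in AGM (SD, n = 5), where 18 copies correspond to an unchanged genome. On this sum TI 7 was lowest with 16.46 copies and TI 6 highest among the TI tumors with 18.32. Split by mature RNA, let-7g held 1.80 ± 0.170 of 2 copies in TI and 2.02 ± 0.00709 in TIM, and let-7a held 3.80 ± 0.171 of 4 copies in TI and 4.03 ± 0.0178 in TIM. For let-7c the values were 3.88 ± 0.230 and 4.0 ± 0.0674 of 4 copies, and for let-7e 2.32 ± 0.366 and 2.01 ± 0.00669 of 2 copies. The mean copy number over all autosomal genes was above that of the let-7 genes in 7 of 8 TI tumors, with TI 6 as the exception (1.99 against 2.04), in 8 of 8 TIM tumors and in 2 of 5 AGM glands.

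**Figure D3:**
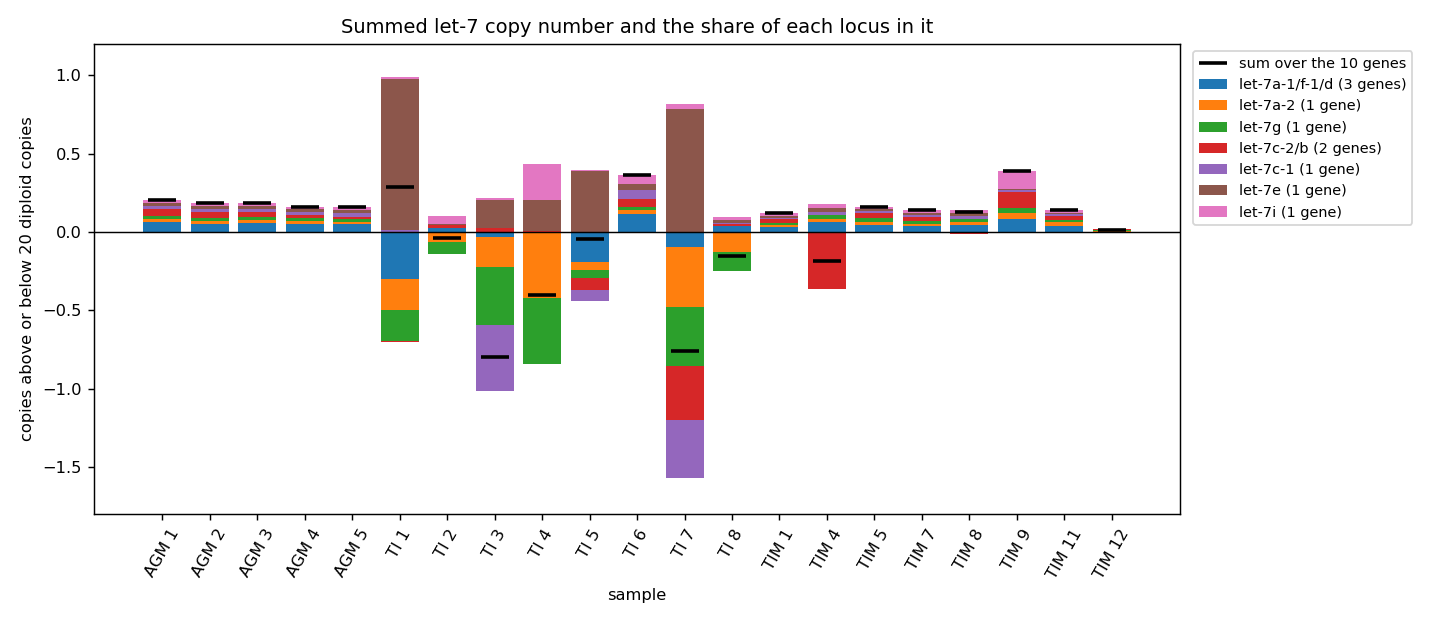
Copies above or below 20 in each of the 21 samples (vertical axis), stacked by let-7 locus, with a black dash for the sum over the 10 genes. Mirlet7e adds 0.969 copies in TI 1, and the sum is lowest in TI 3 with 19.20 copies.

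The summary value of a segment decides how deep the losses appear. The deposited table gives the median and the mean of each segment, and both come from the same reads. At all 21 locus and sample combinations with a median of -0.03 or lower, the mean was lower than the median, by 0.0794 to 0.207. By the mean, Mirlet7g measured -0.318 (TI 1), -0.209 (TI 2), -0.4002 (TI 3), -0.429 (TI 4), -0.215 (TI 5), 0.0360 (TI 6), -0.410 (TI 7) and -0.299 (TI 8). Thus 3 of 8 TI tumors reached the threshold for a loss and 7 of 8 lay at -0.1 or lower. Over the 7 loci, 7 combinations reached -0.4 by the mean, all in TI 3, TI 4 and TI 7 at Mirlet7a-2, Mirlet7g or Mirlet7c-1. With the mean, 7 of 8 TI against 0 of 8 TIM tumors had a loss or partial loss of Mirlet7a-2 and Mirlet7g (Fisher's exact test, p = 0.0014, adjusted p = 0.0291 over all genes), and 4.81% of all genes passed this test with the mean. The AGM glands stayed between -0.0192 and 0.0426 by the mean, and TIM 4 reached -0.325 at the Chr 15 cluster. The plot of means against medians shows this gap at all reduced loci.

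**Figure D4:**
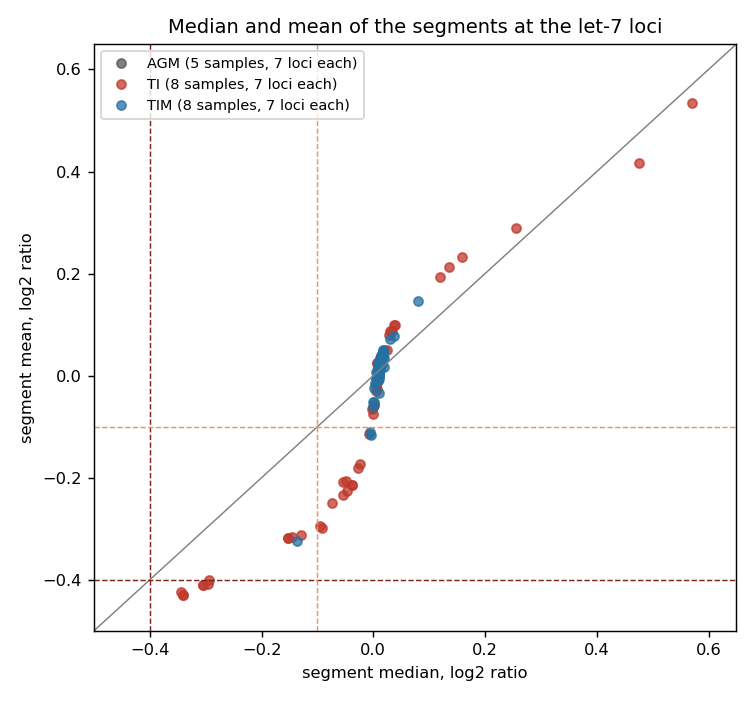
Mean (vertical axis) against median (horizontal axis) log2 ratio of the segments at the 7 let-7 loci in 21 samples. Points on the grey line would have equal values, and dashed lines mark -0.1 and -0.4. Points with a median of -0.03 or lower all lie below the line, and 7 of them reach -0.4 on the vertical axis only.

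Genes of the let-7 pathway were read from the same segments. The 6 partner miRNA genes, of the miR-99/100 and miR-125 families, are transcribed next to let-7 genes and had the same values in every sample as their neighbor: Mir100 and Mir125b-1 as Mirlet7a-2, Mir99a and Mir125b-2 as Mirlet7c-1, and Mir99b and Mir125a as Mirlet7e. Of these 6 genes, the exact permutation test called 2 lower (Mir100 and Mir125b-1) and 2 higher (Mir99b and Mir125a) in TI than in TIM, against 11.1% lower and 10.3% higher over all genes. These calls repeat those of the neighboring let-7 genes on Chr 9, where 99.7% of genes were called lower, and on Chr 17, where 71.1% were called higher.

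Of 17 genes for the biogenesis and turnover of let-7, 3 were lower and 3 higher in TI than in TIM, against the background shares given above. Their median difference was -0.0071, next to -0.0045 over all genes. Dicer1, which cuts the hairpin into the mature RNA, was gained in 5 of 8 TI tumors, with a lowest value of 0.0642, a median of 0.586 and a highest of 0.692 (adjusted p = 0.00329 in the exact permutation test). It lies on Chr 12 with Mycn and had the same value as Mycn in TI 1, TI 4, TI 6 and TI 7. The share of all genes gained in as many TI tumors was not counted, and 19.4% were gained in at least 2. Xpo5, which exports the hairpin from the nucleus, and Khsrp, which aids its processing, lie on Chr 17 and were gained in the same 2 tumors as Mirlet7e (exact permutation test, adjusted p = 0.0371 and 0.0486). Trim71, a let-7 target that acts in turnover, lies on Chr 9 and had the same value as Mirlet7g in every sample (exact permutation test, adjusted p = 0.0316). Tut4 and Tut7, which add uridines to precursors, were also called lower (exact permutation test, adjusted p = 0.0371 and 0.0257). Tut4 on Chr 4 measured -0.871 in TI 6, the TI tumor with no let-7 gene below 0, and -0.206 in TI 3, whereas the lowest value of Tut7 was only -0.0734. Dgcr8, a subunit of the nuclear processing complex, had partial losses in TI 3 and TI 7 with Mirlet7c-1 on Chr 16 (exact permutation test, adjusted p = 0.0734).

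Lin28a and Lin28b encode the proteins that block let-7 maturation, and neither was gained. Lin28b on Chr 10 lay between -0.0389 and 0.155 in the TI tumors and between -0.00228 and 0.0985 in the TIM tumors. Lin28a on Chr 4 measured -0.907 in TI 6 and had a highest value of 0.0134 in the other TI tumors. In TIM it lay between 0.00305 and 0.0394. TI and TIM did not differ past the threshold at either gene (exact permutation test, adjusted p = 0.0827 for Lin28a and 0.754 for Lin28b).

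Of 18 known let-7 targets, 4 were higher and 2 lower in TI than in TIM, against 10.3% higher and 11.1% lower over all genes. The median difference over the list was 0.0031, next to -0.0045 over all genes. Mycn on Chr 12 was gained in the same 5 of 8 TI tumors as Dicer1 and in 0 of 8 TIM tumors (TI median 0.540, exact permutation test, adjusted p = 0.00329). Igf2bp1 on Chr 11 was gained in 7 of 8 TI tumors and in TIM 9 (TI median 0.596, exact permutation test, adjusted p = 0.0257). Hmga1 on Chr 17 was gained in TI 1 and TI 7 (exact permutation test, adjusted p = 0.0486), and Dicer1, which is also a target, was given above. Cdc25a and Arid3b on Chr 9 had partial losses in the same 4 TI tumors as Mirlet7g (exact permutation test, adjusted p = 0.0316 and 0.0257). Ccnd2 on Chr 6 was gained in 2 TI and 4 TIM tumors and was at -0.986 in TI 8, and Igf2bp3 on Chr 6 was gained in 3 tumors of each group. Igf2bp2 on Chr 16 was at -0.310 in TI 3 and -0.518 in TI 7. The 4 TI tumors with partial losses of Mirlet7g all had a gain of Igf2bp1, and so had TI 2, TI 5 and TI 8. TI 6 had neither, with 0.0149 at Mirlet7g and 0.0276 at Igf2bp1. These lists were chosen with earlier results of these data known, and Mycn and Igf2bp1 are genes the study set out to examine in these tumors, so their counts are no independent evidence.

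**Figure D5:**
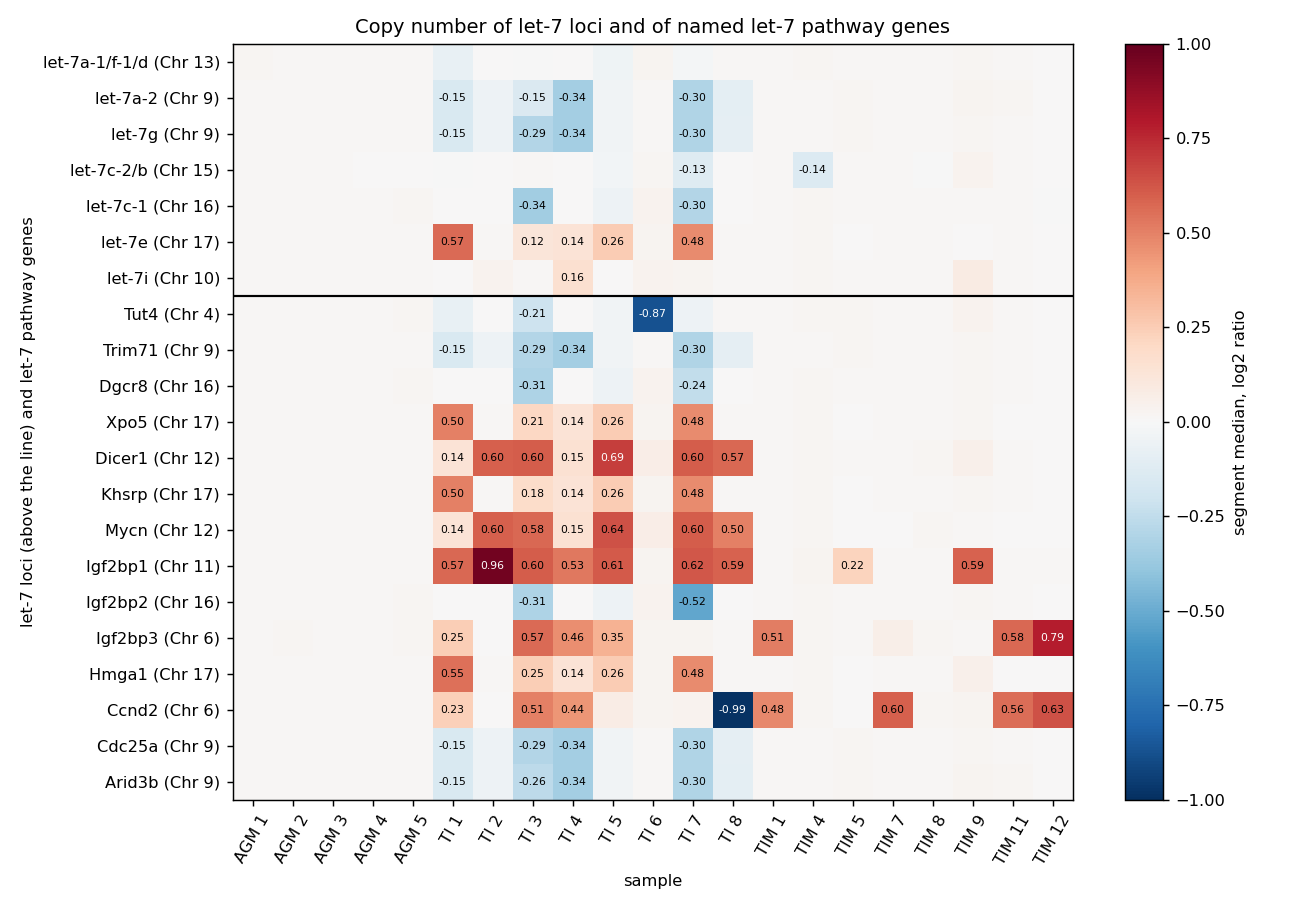
Median log2 ratio (color scale, with the value printed where it is 0.1 or higher or -0.1 or lower) at the 7 let-7 loci and at 14 named let-7 pathway genes (rows) in 21 samples (columns). Rows on one chromosome share much of their pattern, such as let-7g, Trim71 and Cdc25a on Chr 9.

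The match to the let-7 seed was searched in 3'UTRs to show what the shared seed can pair with. The motif was CTACCTC, the reverse complement of bases 2 to 8, on the sense strand of the canonical GENCODE transcript of each gene. It was found in 10 of the 17 listed targets that were searched and in 10.1% of 19658 autosomal genes. The target Dicer1 was not searched, because its canonical transcript is not typed as plain protein coding in this annotation. The median 3'UTR length was 2166 bases for the listed targets and 1114 bases for all genes, and longer sequences hold more matches. Igf2bp1 and Lin28b held 4 matches each. Mycn, with a 3'UTR of 931 bases, held 0, as did Hmga2, whose canonical transcript has a 3'UTR of only 37 bases, and Myc, Hras, Ccnd1, Ccnd2 and Cdk6. Only this motif was searched, so other kinds of let-7 site were not counted, and 0 says only that these letters are not in the 3'UTR of that transcript. The 4 sites of Igf2bp1, in a 3'UTR of 6337 bases, are shown 5' to 3' with the match in capitals. They belong to the mouse gene, whereas the IGF2BP1 transgene carries no such 3'UTR.
Igf2bp1 bases 1715 to 1721: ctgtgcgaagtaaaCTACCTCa
Igf2bp1 bases 4136 to 4142: agcagtgctattaaCTACCTCa
Igf2bp1 bases 4730 to 4736: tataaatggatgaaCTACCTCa
Igf2bp1 bases 5353 to 5359: cttttggttttaatCTACCTCt

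The 6 genes of the miR-17-92 cluster on Chr 14, a miRNA cluster activated by MYC proteins, served as a comparison. They shared 1 value per sample, at -0.681 in TI 7 and 0.185 in TI 6, and the TIM tumors lay between -0.0035 and 0.0243. None of the 6 genes passed the threshold between TI and TIM (exact permutation test, adjusted p = 0.203). Like the let-7 genes, this cluster had no gain past 0.3 in TIM.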

How the data were processed

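Reads of low coverage were mapped by the authors to mm39 with HISAT2 2.1.0 and derived copy number with cn.MOPS. The submitters' processing notes also list cutadapt 2.8 and SAMtools 1.10. Window length, filters and segmentation settings are not given in the sources used here. The deposited table holds 1485 segments with a median and a mean log2 ratio to wild-type adrenal glands and a copy number class, which equalled 2 × 2^median within 0.05 in every segment. The deposited copy number served only as an alternative.

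Each sample's group and number come from its GEO description. The labels name separate samples but do not say in every case that these are separate animals. The p-values treat every sample as independent and would not hold where samples share an animal. No pair of samples held identical values (0 of 210 pairs). The ends of the 6 chromosomes with members equalled the GRCm39 lengths. Each gene received the length-weighted value of the segments that overlap it, and each member lay in a single segment.

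Groups were compared at 72958 autosomal genes by rank sums with an exact permutation test, two-sided, over all divisions of the samples into groups of these sizes, where the smallest p over all genes was 0.000777 for TI against AGM (where values were tied), 0.00155 for TIM against AGM and 0.000155 between the tumor groups, and by Fisher's exact test, with Benjamini-Hochberg adjustment at 0.05. The gain and loss thresholds are those of the study, and the limits of 0.1 and -0.1 were set for this work. Summed copy numbers were not tested. All 10 members were named, and a listed gene was named when it was gained or at -0.1 or lower in at least 2 tumors of a group. Lin28a, Lin28b, Tut7, the miR-17-92 genes and, in the seed search, Hmga2, Myc, Hras, Ccnd1 and Cdk6 fall outside this rule and were named after their values were seen. One gene of the target list is not reported here and was left out of its counts. Members and lists were chosen with earlier results of these data known. Confidence intervals are Clopper-Pearson at 95% and cover counting error only. Alternatives are given in the closing section. The X-linked let-7 gene was not analysed here.

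The exact permutation test with its adjustment was tested on simulated data with known differences. Software was Python 3.11.15 with scipy 1.17.1 for the tests, numpy 2.4.6, pandas 2.3.3 for the tables and, for the figures, matplotlib 3.10.9.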

Additional observations from a re-analysis of the deposited data

Results flagged for a closer look

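Of 24 combinations of a locus (or the summed copy number) and a group, 5 held a sample far from the others of its group by Dixon's test at 95%, where chance alone is expected to mark about 1 in 20. At the Chr 15 cluster of Mirlet7c-2 and Mirlet7b, TI 7 measured -0.130 with the next TI tumor at -0.0275, and TIM 4 measured -0.137 with the next TIM tumor at -0.00511. At Mirlet7i on Chr 10, TI 4 measured 0.159 with the next TI tumor at 0.0381, and TIM 9 measured 0.0796 with the next TIM tumor at 0.0174. At Mirlet7c-1 on Chr 16, TIM 12 measured -0.00436 with the next TIM tumor at 0.00813. The last of these gaps is small in size, and the other 4 each rest on 1 tumor.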

How the results depend on the processing

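The number of members called kept its value or stayed within 1.5 times of it under most alternatives. With the segment mean, the difference of group means, adjustment over miRNA genes only, segments within 1 Mb, the TI tumor of the AGH series left out, or values rounded to steps of 0.05, the 3 members called between TI and TIM numbered 3 again, while the share of all genes called was 20.2, 26.6, 22.2 (of miRNA genes), 21.3, 29.6 and 17.5% in that order. With only the tumors not labelled as adrenal, 5 members were called, and 19.9% of all genes. Leaving out single tumors gave 0 to 7 calls, with 0 without TI 3, TI 5 or TI 7 (5.75% of all genes called in each, against 21.4% with all tumors) and 7 without TI 6 (30.6% of all genes). Against AGM, leaving out single samples gave 0 to 6 calls for TI (6 without TI 6, 1, Mirlet7e, without TI 2) and 0 for TIM, where 40.0% of all genes were called for TI without TI 6 and 24.0% without TI 2. The replicate block, with 5 same-numbered tumors, called 0 members between TI and TIM (adjusted p = 0.162 at the 3 members), where 5 sign flips cannot give an exact p below 0.0625. The numbers are shared by name only, since the deviations of same-numbered TI and TIM tumors correlated from -0.363 to 0.421 across genes, those of TI and AGM from -0.167 to 0.0798 and those of TIM and AGM from -0.393 to 0.0718. The adjusted p of Mirlet7g rose to 0.0625 with IGF2BP1 +/+ tumors only, and that of Mirlet7e to 0.0622 with only the tumors not labelled as adrenal. Mirlet7i, never called between TI and TIM, changed sign with only the tumors not labelled as adrenal (adjusted p = 0.972) and without TI 4 or TIM 12, with adjusted p from 0.653 to 1 in the exact test over the left-out samples.

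The number of losses or partial losses followed the limit and the summary value. In TI the 12 combinations became 33 with the mean, 19 at -0.05, 7 at -0.2 and 0 at -0.4. In TIM the 2 became 5 with the mean, 0 at -0.2, 0 at -0.4 and 1 with clusters counted once. Fisher's exact test called 2 members (and 4.81% of all genes) with the mean and 0 members otherwise. The median summed copy number became 19.09 in TI and 20.41 in AGM with the mean, 13.87 in TI, 14.10 in TIM and 14.13 in AGM with each locus counted once, and 20 in AGM with the deposited copy number. Leaving out single AGM glands gave 20.17 to 20.18. The causes were not tested. Leaving out TI or TIM tumors, rounding and counting loci once were chosen after seeing the data.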
